A study of Mus musculus with 61 samples.

Results

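The genes described here are the connexins Gja4 and Gja1 and the cadherins Cdh1 and Cdh2, which join the oocyte to its granulosa cells. They were chosen by name, as 4 of the 23927 gene rows, and all 4 had counts. Single cells came from ovaries of wild-type CD-1 mice, an outbred stock, at postnatal day 5, taken 6 hours after solvent or doxorubicin was injected into the peritoneum. Doxorubicin is a DNA-damaging anti-cancer drug whose dose is labelled 10 in a unit that is not a dose (mg/kb). The groups were 16 control oocytes, 16 doxorubicin oocytes, 16 control granulosa cells and 13 doxorubicin granulosa cells, each cell a library of its own. No animal is named for any cell, so each group counts as 1 sample, there are no replicates, and no difference was tested. Levels are in CPM, a group's summed counts of a gene for every 1000000 of its total, and the 95% intervals in brackets cover counting error only, of reads for levels and of cells for shares of cells, and no spread between animals. Reads amplified without molecular identifiers are not independent molecules, so true error is wider.

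Gap junctions are channels between neighbouring cells, built from connexins, that let small molecules pass. In the ovary the oocyte side of the junction with granulosa cells is made mainly of connexin 37, encoded by Gja4, and granulosa cells are coupled to each other mainly by connexin 43, encoded by Gja1. Cadherins are calcium-dependent adhesion proteins. E-cadherin is encoded by Cdh1 and N-cadherin by Cdh2, and both are held to the actin skeleton by catenins. Transcripts were measured here, not proteins, junctions or coupling.

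Total counts per cell ranged from 6834594 to 31262609. In a cell, 3 counts, the limit that a count of 0 allows, correspond to between 0.0960 and 0.439 CPM. Many granulosa libraries had a higher CPM sum of oocyte markers than of granulosa markers. The 2 lists differ in level, so the higher sum does not measure which cell type gave more transcripts. Control granulosa library 2 was counted so at 583.5 against 421.6 CPM, with 8342 CPM of stroma markers. The summed CPM of 18 oocyte markers exceeded that of 19 granulosa markers in 6 of 16 granulosa libraries from control ovaries, in 8 of 13 from doxorubicin ovaries and in all 32 oocytes. The oocyte marker sum had a median of 1751 CPM in control granulosa libraries (range 425 to 17230) and of 9158 CPM in doxorubicin granulosa libraries (range 374 to 43920). Results that use granulosa libraries are therefore also given for the 10 control and 5 doxorubicin libraries whose granulosa markers were the higher sum. Control granulosa library 8 had 17230 CPM of oocyte markers, 8404 CPM of stroma markers and 2607 CPM of granulosa markers. Stroma markers reached 13320 CPM in control granulosa library 13, and blood and immune markers 34800 CPM in doxorubicin granulosa library 15.

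In solvent-treated ovaries the 4 genes formed a mirrored pair. Gja4 and Cdh1 were higher in oocytes, and Gja1 and Cdh2 were higher in granulosa cells. All 4 differed by more than 2-fold, beside 60.3% of the 12373 genes that reached 5 CPM in one or both groups. By direction, 29.0% of those genes were past 2-fold higher in oocytes and 31.3% past 2-fold lower. A 2-fold difference between these cell types was thus common.

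Gja4 (ENSMUSG00000050234.7, chromosome 4, 127311421 to 127314039 on the minus strand of mm10, 2 exons) was the steadiest of the 4 genes in oocytes. In control oocytes it ranged from 361 CPM to 596 CPM, with a median of 448 CPM, and its coefficient of variation over the cells was 14.9%. In control granulosa libraries the median was 0.432 CPM and the range 0 to 255 CPM. The groups did not overlap, since 16 of 16 control oocytes lay above the highest control granulosa library. Under a looser limit, 11.2% of genes had at least 50% of control oocytes above the highest control granulosa library. The share of genes with all 16 above was not counted. Summed over cells the level was 435 CPM (432 to 438) in oocytes and 47.3 CPM (46.4 to 48.4) in granulosa cells, a log2 ratio of 3.20 (3.17 to 3.23).

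The mirror image was seen for Gja1 (ENSMUSG00000050953.10, chromosome 10, 56377330 to 56402513 on the plus strand of mm10, 3 exons). In control granulosa libraries it ranged from 0.970 CPM to 1434 CPM, with a median of 518 CPM, and at least 5 counts were found in 16 of 16. The lowest value was that of library 8, and the next lowest was 44.4 CPM. In control oocytes the range was 0 to 64.8 CPM and the median 5.32 CPM. The summed levels were 538 CPM in granulosa cells and 11.04 CPM in oocytes, a log2 ratio of oocytes over granulosa cells of -5.61 (-5.67 to -5.55). Leaving out 1 cell moved it between -6.06 (without control oocyte 9) and -5.38 (without control oocyte 16).

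Cdh1 (ENSMUSG00000000303.12, chromosome 8, 106603351 to 106670246 on the plus strand of mm10, 16 exons) was found in nearly every oocyte and in almost no granulosa library. At least 5 counts were present in 15 of 16 control oocytes (93.8%, exact binomial interval 69.8% to 99.8%) and in 1 of 16 control granulosa libraries (6.25%, 0.158% to 30.2%). Control oocytes ranged from 0 to 65.1 CPM around a median of 30.3 CPM. The oocyte without a count was replicate 3, and replicates 11 and 4 were also low, with 13 and 21 counts. Of the 190 counts in control granulosa libraries, 99.5% lay in replicate 7. The log2 ratio of oocytes over granulosa cells was 4.81 (4.60 to 5.03), and it was 10.68 without that 1 library.

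Cdh2 (ENSMUSG00000024304.14, chromosome 18, 16588877 to 16809246 on the minus strand of mm10, 16 exons) was higher in granulosa cells but uneven among them. At least 5 counts were found in 11 of 16 control granulosa libraries, whose values ran from 0 to 160 CPM with a median of 5.62 CPM. In control oocytes at least 5 counts were found in 7 of 16, the median was 0.171 CPM and the highest value 11 CPM. The ranges overlapped, and 0 of 16 oocytes were above the highest granulosa library or below the lowest. The log2 ratio of oocytes over granulosa cells was -3.47 (-3.60 to -3.34). Without control oocyte 16, which held 65.5% of the oocyte counts, it was -4.75. An annotated antisense gene, Gm15485, lies inside Cdh2 on the other strand, and nothing in the labels states that the counting used strand.

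**Figure D1:**
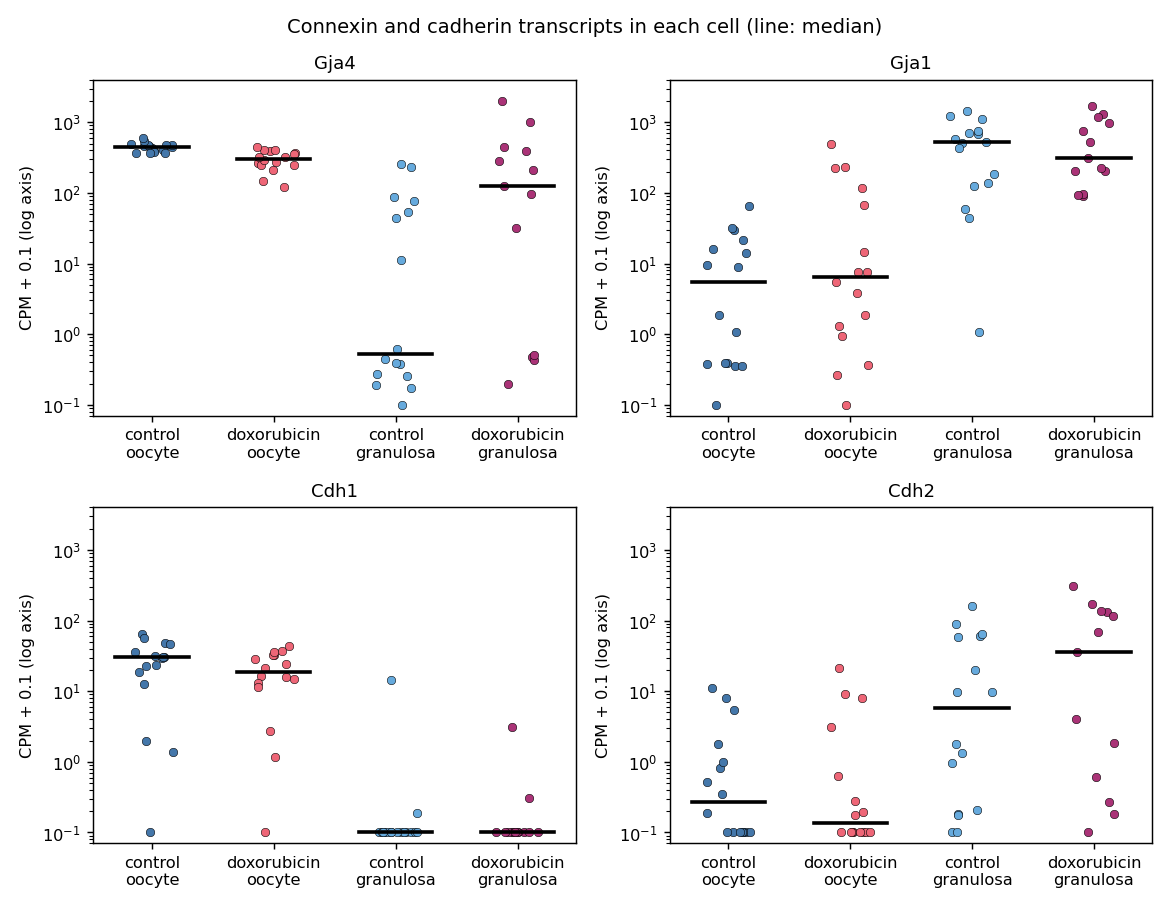
Levels of Gja4, Gja1, Cdh1 and Cdh2 in each of 61 cells, as CPM plus 0.1 on a log axis, by group; each point is 1 cell and the black line is the group's median. Gja4 lies between 361 and 596 CPM in the control oocytes, while the control granulosa libraries split into 9 under 1 CPM and 7 from 11.1 to 255 CPM.

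All 4 directions held when only granulosa libraries with the higher granulosa sum were kept. The log2 ratio of control oocytes over control granulosa cells was then 3.34 for Gja4, -6.12 for Gja1, 4.12 for Cdh1 and -4.16 for Cdh2. With oocytes under 200 CPM of granulosa markers and granulosa libraries with at least 5000 CPM of them, which kept 10 oocytes and 8 granulosa libraries, the values were 3.12, -7.21, 3.35 and -5.82 in the same order.

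Levels of different genes were compared per kilobase of the longest annotated transcript, which is 1685 bases for Gja4, 3889 for Gja1, 4430 for Cdh1 and 4843 for Cdh2. On this scale Gja4 in control oocytes was at 258 CPM per kilobase, the highest of the 74 junction genes considered, and Gja1 in control granulosa cells was at 138 CPM per kilobase, the third. The cadherins were much lower, with Cdh1 in control oocytes at 6.70 and Cdh2 in control granulosa cells at 6.13 CPM per kilobase. Within control oocytes the order per kilobase was Gja4, Cdh1, Gja1 and Cdh2, and within control granulosa cells it was Gja1, Gja4, Cdh2 and Cdh1. Gja4 and Cdh1 in oocytes did not overlap cell by cell, while all other neighbours in these orders did and are not separated.

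The sequences before the 2 connexin genes are shown because the transcripts of these genes were higher in opposite cell types. They are the 250 bases before each start in the RefSeq promoter table of build GRCm38.p6, which matched Gja4 and Gja1 of the 4 genes. Gja4 is chr4:127314040-127314289 on the minus strand and Gja1 is chr10:56377050-56377299 on the plus strand. Capitals mark TGANTCA, the core site of AP-1, the dimer of Jun and Fos proteins that the JNK kinases named in the series title act on.
Gja4: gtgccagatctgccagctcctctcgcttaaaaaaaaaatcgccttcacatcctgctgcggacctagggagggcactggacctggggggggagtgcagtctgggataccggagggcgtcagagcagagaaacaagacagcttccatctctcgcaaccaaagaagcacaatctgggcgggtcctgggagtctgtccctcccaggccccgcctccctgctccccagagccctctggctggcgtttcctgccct
Gja1: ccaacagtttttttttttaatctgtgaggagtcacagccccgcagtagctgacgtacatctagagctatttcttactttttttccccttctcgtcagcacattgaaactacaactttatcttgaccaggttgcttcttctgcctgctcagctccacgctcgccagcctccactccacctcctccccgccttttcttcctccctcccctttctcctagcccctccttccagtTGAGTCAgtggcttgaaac
The Gja1 start given above, 56377330, is that of GENCODE and lies downstream of the RefSeq start used for this window. TGANTCA, searched on both strands, starts 19 bases before the RefSeq start of Gja1, and 6.75% of 32851 promoter windows of this length hold it. This motif was picked after its letters had been seen in the Gja1 window, so its presence there is not a result of the search. No match was found in the Gja4 window. The E-box CAGGTG, searched on both strands as the core site of Snail and Zeb repressors of Cdh1, was found in neither window, and 17.2% of the windows hold it. The Gja4 window has 61.2% G and C and 9 CG pairs, and the Gja1 window 50% and 6. These are matches of letters, and binding was not measured.

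After doxorubicin, Gja4 was lower in oocytes. Doxorubicin oocytes ranged from 120 CPM in replicate 10 to 444 CPM in replicate 16, with a median of 306 CPM, against 361 to 596 CPM and a median of 448 CPM in control oocytes. Of 16 doxorubicin oocytes, 11 lay below the lowest control oocyte and 0 above the highest. In oocytes 0.764% of 11119 genes had at least 50% of doxorubicin cells below the lowest control cell, a limit chosen after the values were seen. Summed over cells it was at 301 CPM beside 435 CPM. The log2 ratio, -0.53 (-0.55 to -0.52), is 1.45-fold and short of 2-fold. Of all genes compared, 9.16% had a lower ratio. Leaving out each cell in turn kept it between -0.58 and -0.48, and the oocytes below 200 CPM of granulosa markers gave -0.55. Doxorubicin oocyte 4, whose raw data the series text calls lost, had the second lowest value (146 CPM), and the ratio without it was -0.48. The 17 oocyte markers with at least 5 CPM had a median log2 ratio of -0.04, with 11 lower and 6 higher. Bmp15 (-1.41) and Gdf9 (-0.77) had lower ratios than Gja4, Zp2 (-0.52) was close to Gja4, and Npm2 (0.47) was the highest. The oocyte marker sum had a median over cells of 46160 CPM without the drug and 33780 CPM with it, with overlapping ranges. Gja4 made up 0.966% of this sum over the control group and 0.816% over the doxorubicin group. Whether the lower level was particular to Gja4 was not tested.

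The spread of Gja4 between oocytes was also wider after the drug, with a coefficient of variation of 31.1% beside 14.9% in control oocytes. Cdkn1a, the p53 target that blocks the cell cycle, was at 241 and 268 CPM in the doxorubicin oocytes with the lowest Gja4 (replicates 10 and 4) and at 19.9 CPM in the one with the highest (replicate 16). Other cells did not follow that order. Replicate 7 had 213 CPM of Gja4 and 7.90 CPM of Cdkn1a, replicate 5 had the highest Cdkn1a (289 CPM) with 319 CPM of Gja4, and replicate 6 had 411 CPM of Gja4 with 103 CPM of Cdkn1a. Over these 16 cells, which share a group and a scaling to total counts, Pearson's r of the log2 levels was -0.47 and Spearman's rho -0.52.

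Gja1 was the only one of the 4 genes past 2-fold in oocytes, where 8.75% of the 11119 genes were past 2-fold (6.30% higher and 2.45% lower) and 3 of the 4 genes reached 5 CPM. Control oocytes summed to 11.04 CPM (10.6 to 11.5) and doxorubicin oocytes to 65.1 CPM (63.9 to 66.3). Their log2 ratio was 2.56 (2.49 to 2.63). The cells' medians differed little, at 5.32 and 6.36 CPM. The high values lay in doxorubicin oocytes 9, 12, 11, 6 and 10, with 493, 234, 225, 115 and 67.1 CPM, and these 5 of 16 cells were above the highest control oocyte. At least 5 such cells were found for 8.09% of genes, a limit chosen after the values were seen. Replicate 9 alone held 37.7% of the group's counts, and without it the ratio was 1.95. Between the cells' median log2 levels the difference was 0.48.

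Some markers of granulosa and of other cell types, but not all, were also higher in the summed doxorubicin oocytes. The granulosa sum ranged from 2.58 to 769 CPM over control oocytes and from 7.68 to 3163 CPM over doxorubicin oocytes, with medians of 84.8 and 85.7 CPM. Of 11 granulosa markers that reached 5 CPM, 8 were higher after the drug and 6 of those past 2-fold, with a median log2 ratio of 1.86. The other 3 were lower, Kctd14 past 2-fold (-2.05), Amhr2 at -0.75 and Wnt6 at -0.27. Over all genes 6.30% were past 2-fold higher and 2.45% past 2-fold lower. Past 2-fold higher were also 3 of 7 stroma markers (Col3a1 at 1.80 and Col1a2 at 1.47) and 2 of 4 smooth muscle markers (Acta2 at 3.85). Dcn, Lum and Tcf21 of the stroma list and Myh11 and Cnn1 of the smooth muscle list were lower (-0.39 to -0.01). Of 7 endothelial markers, 2 reached 5 CPM, Tek (2.87) and Pecam1 (2.20). The filter admitted these 2, and Fst, Krt8, Krt19, Hsd17b1, Nr5a1, Acta2 and Tagln, only through doxorubicin oocytes, so their direction was fixed by it. It admitted Kctd14 and Wnt6 only through control oocytes, so their lower direction was fixed too. Of the 11 granulosa markers, only Inha, Wnt4, Gata4 and Amhr2 reached 5 CPM in both oocyte groups. Under 5 CPM, Tie1 and Egfl7 were lower, and Kdr, Emcn and Cldn5 higher. Krt19 stood at 0.225 CPM in control oocytes, and Fshr had 1 count there. Doxorubicin oocytes 9, 11 and 12 had sums of 3163, 2721 and 2046 CPM. Doxorubicin oocyte 6 did not share that feature, with 115 CPM of Gja1 beside 71.2 CPM of granulosa markers, 551 CPM of stroma markers and 396 CPM of smooth muscle markers, the highest smooth muscle sum of the 32 oocytes. Among the 10 control and 11 doxorubicin oocytes under 200 CPM of granulosa markers, the Gja1 ratio was 1.26, from 6.01 to 14.4 CPM. The medians of these cells were 0.291 and 3.71 CPM. Doxorubicin oocyte 6 was among them with 1304 Gja1 counts, the highest of the kept cells. The ratio of the kept cells without it was not run, so 1.26 may rest on that 1 cell. Gja1 made up 9.72% of the granulosa marker sum in control and 13.2% in doxorubicin granulosa libraries, 6.26% in control oocytes and 12.4% in doxorubicin oocytes. The part of any of these transcripts in the difference was not tested.

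Cdh1 was slightly lower in doxorubicin oocytes, with overlapping ranges. They ran from 0 to 43.4 CPM with a median of 18.6 CPM, and 15 of 16 had at least 5 counts, as in control oocytes. No doxorubicin oocyte lay outside the control range. Control oocytes summed to 29.7 CPM and doxorubicin oocytes to 21.3 CPM. Their log2 ratio was -0.48 (-0.54 to -0.42). It turned to 0.27 in the oocytes below 200 CPM of granulosa markers, so its direction depends on which oocytes are kept. Without control oocyte 16, which held 25.1% of the control counts, it was -0.31.

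Cdh2 stayed under 5 CPM in both oocyte groups. At least 5 counts were found in 5 of 16 doxorubicin oocytes (31.3%, 11.02% to 58.7%) and in 7 of 16 control oocytes (43.8%, 19.8% to 70.1%). The highest doxorubicin value was 20.9 CPM in replicate 11. The log2 ratio was -0.17 (-0.36 to 0.01), and leaving out 1 cell moved it from -0.98 (without doxorubicin oocyte 11) to 1.11 (without control oocyte 16), so no direction can be given.

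**Figure D2:**
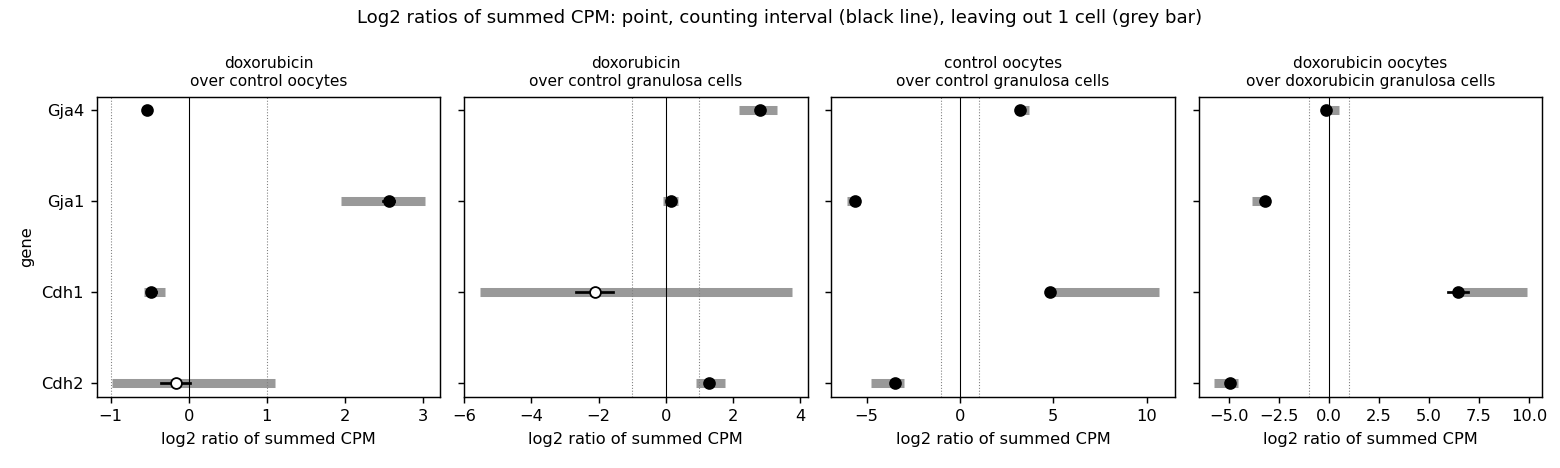
Log2 ratios of summed CPM for the 4 genes in the 4 comparisons; points are the ratios, black lines the counting intervals, grey bars the range over leaving out each cell in turn, and open points genes under 5 CPM in both groups (dotted lines mark 2-fold). The grey bar of Gja4 in oocytes runs only from -0.58 to -0.48, and that of Cdh1 in granulosa cells from -5.54 to 3.76.

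In granulosa libraries the connexin with the large difference was Gja4, not Gja1. Of 3 of the 4 genes with at least 5 CPM, 2 were past 2-fold, Gja4 and Cdh2, and both were higher after doxorubicin. Here 40.6% of 12194 genes were past 2-fold and 20.6% were past it on the higher side, so such a difference was common among these libraries.

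Gja1 differed least of the 3. Doxorubicin granulosa libraries ranged from 89.8 to 1703 CPM with a median of 308 CPM, and control libraries from 0.970 to 1434 CPM with a median of 518 CPM. The ranges overlapped, with 1 of 13 doxorubicin libraries above the highest control library. Summed over libraries, control was at 538 CPM and doxorubicin at 607 CPM. The log2 ratio was 0.17 (0.16 to 0.19), but it was -0.09 without doxorubicin granulosa library 14 and -0.75 between the cells' medians, and 0.50 among libraries with the higher granulosa sum.

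Gja4 in granulosa libraries was either near 0 or high. In control libraries 9 of 16 were under 1 CPM, and the other 7 ran from 11.1 to 255 CPM. In doxorubicin libraries 4 of 13 were under 1 CPM, and the other 9 ran from 31.6 CPM to 1014 CPM in replicate 6 and 2029 CPM in replicate 1. Those 2 libraries exceeded the highest of all oocytes, 596 CPM. The summed levels were 47.3 CPM (46.4 to 48.4) in control and 335 CPM (332 to 338) in doxorubicin libraries, a log2 ratio of 2.82 (2.79 to 2.86), and 5 of 13 were above the highest control library. In these libraries 2.53% of genes had at least 5 doxorubicin libraries above the highest control library. Replicate 1 held 40.8% of the doxorubicin counts, and without it the ratio was 2.17.

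Oocyte markers were higher in the same group. Of 16 oocyte markers that reached 5 CPM in granulosa libraries, 16 were past 2-fold higher after doxorubicin, with a median log2 ratio of 1.98. Among all genes 20.6% were past 2-fold higher. Bmp15, Kit and Oosp1 reached 5 CPM only in doxorubicin libraries, so their direction was fixed by that filter. Ddx4 and Lhx8, both germ cell genes under 5 CPM, were at 0.664 and 0.797 CPM in doxorubicin and at 1.93 and 1.82 CPM in control granulosa libraries. In doxorubicin oocytes they were at 271 and 218 CPM. Of all 18 markers, 15 were higher in doxorubicin oocytes than in doxorubicin granulosa libraries and 3 lower. Gdf9 was at 564 CPM in these oocytes and 1817 CPM in these libraries, and Npm2 at 461 and 462 CPM. Replicates 1 and 6 had oocyte marker sums of 43920 and 31040 CPM. With only libraries whose granulosa sum was higher, the Gja4 ratio turned to -0.64, from 43.1 CPM over 10 control to 27.5 CPM over 5 doxorubicin libraries. Their medians were close, at 0.432 and 0.406 CPM. Control library 1 was among them with 2351 Gja4 counts, at 255 CPM, and the ratio of the kept libraries without it was not run. Over libraries under 2000 CPM of oocyte markers, a limit chosen after the data were seen, the Gja4 ratio was -7.49, but the medians were 0.338 and 0.215 CPM. The summed levels were 39.7 CPM over 9 control and 0.221 CPM over only 2 doxorubicin libraries. One of them, library 13, is also among the 5 and had 7961 CPM of stroma markers beside 1596 CPM of granulosa markers. Among libraries whose granulosa sum exceeded both the oocyte and the stroma sum, an alternative added after the data were seen, the ratio was -0.32 over 10 control and 4 doxorubicin libraries. Over libraries with at least 5000 CPM of granulosa markers, which kept doxorubicin libraries 7 and 12 whose oocyte markers were the higher sum, it was 1.26. The part of the oocyte transcripts in the difference was not tested.

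Gja4 and the oocyte markers ran together in part, in proportions that differed between libraries. Over the 29 granulosa libraries, each set against the mean of its group, Pearson's r of Gja4 with the oocyte marker sum was 0.52 and Spearman's rho 0.55. As a share of the oocyte marker sum, Gja4 was 0.966% over control and 0.816% over doxorubicin oocytes. It was 1.55% over control and 2.61% over doxorubicin granulosa libraries, but the medians of the libraries' own shares were 0.0376% and 1.53%. Control granulosa library 1 had 255 CPM of Gja4 beside 1293 CPM of oocyte markers, and control library 8 had 0.176 CPM beside 17230 CPM. Gja4 is also an endothelial connexin. Endothelial markers had a sum of 0 CPM in control library 1 and in doxorubicin libraries 1 and 6, and 5 of the 7 (Pecam1, Tek, Emcn, Cldn5 and Tie1) were under 3 counts over all doxorubicin granulosa libraries. The other 2 were present there, with Egfl7 at 12.7 CPM (7.94 in control libraries) and Kdr at 3.21 CPM (0.0723 in control libraries). Doxorubicin library 12 had 189 CPM of endothelial markers beside 207.5 CPM of Gja4, and the part of endothelial transcripts was not tested.

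**Figure D3:**
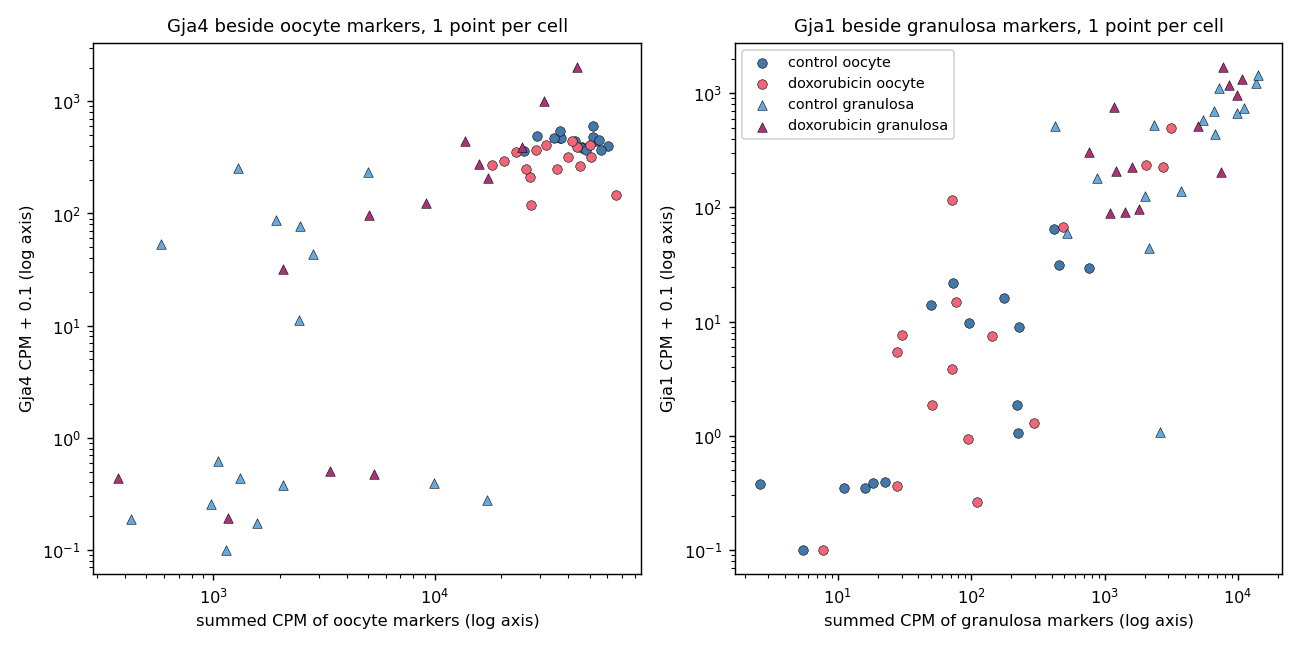
Left, Gja4 against the summed CPM of oocyte markers; right, Gja1 against the summed CPM of granulosa markers, with 1 point per cell, circles for oocytes and triangles for granulosa libraries, and log axes. Doxorubicin granulosa library 1 is the highest triangle on the left, at 2029 CPM of Gja4 and 43920 CPM of oocyte markers, and doxorubicin oocytes 9, 11 and 12 reach 225 to 493 CPM of Gja1 on the right.

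Cdh1 was rarely found beside Gja4 in granulosa libraries. Over oocytes, Cdh1 counts were 6.82% of Gja4 counts in the control and 7.10% in the doxorubicin group. Over the 10 doxorubicin granulosa libraries with at least 5 counts of Gja4 they were 0.0730%, and the highest of these libraries was at 0.301%. Of 32 oocytes, 30 lay above that highest value, and control oocyte 3 and doxorubicin oocyte 9 had no Cdh1 count. Over the 8 control granulosa libraries with at least 5 counts of Gja4 the value was 2.22%, carried by replicate 7 with 189 Cdh1 counts. In all, 2 of the 18 granulosa libraries with Gja4 had at least 5 counts of Cdh1. The 2 genes were thus found together in 30 of 32 oocytes and in few granulosa libraries with Gja4.

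The drug ratio of Cdh1 in granulosa cells carries no direction. The doxorubicin libraries held 35 counts, of which 94.3% lay in replicate 6, and the control libraries 190. The log2 ratio of -2.11 was 3.76 without control library 7 and -5.54 without doxorubicin library 6, against a floor of 3 counts over the group, and both groups were under 5 CPM.

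**Figure D4:**
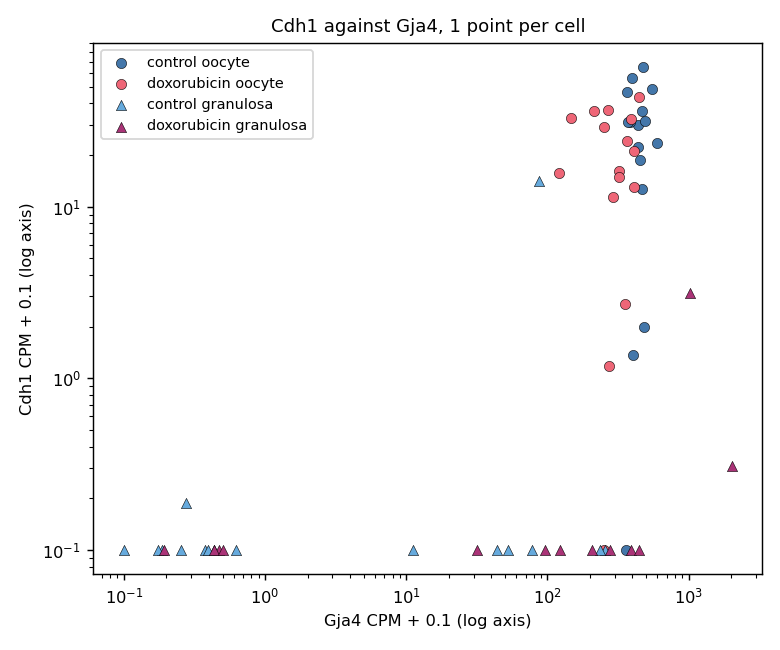
Cdh1 against Gja4, both as CPM plus 0.1 on log axes, with 1 point per cell. Oocytes (circles) cluster where both genes are present, whereas most granulosa libraries (triangles) with at least 5 counts of Gja4 lie at 0 Cdh1, apart from control library 7 at 14.1 CPM and doxorubicin libraries 6 and 1 at 3.05 and 0.208 CPM.

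Cdh2 was higher in doxorubicin than in control granulosa libraries, with overlapping ranges. Doxorubicin libraries ran from 0 to 310 CPM with a median of 35.2 CPM, and 10 of 13 had at least 5 counts. Control libraries ran from 0 to 160 CPM with a median of 5.62 CPM, and 11 of 16 had at least 5 counts. Of 13 doxorubicin libraries, 2 exceeded the highest control library. The summed levels were 29.7 CPM (28.9 to 30.5) and 72.7 CPM (71.4 to 74.2). Their log2 ratio was 1.29 (1.25 to 1.34), and without doxorubicin library 12 it was 0.91, short of 2-fold. Among libraries with the higher granulosa sum it was 0.12, from 47.8 to 51.9 CPM, and among those with at least 5000 CPM of granulosa markers it was 1.19.

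Between oocytes and granulosa cells of the doxorubicin ovaries, 3 of the 4 genes kept the direction and the 2-fold difference of the control ovaries, beside 55.8% of 12428 genes past 2-fold (27.6% higher and 28.2% lower). The log2 ratios of oocytes over granulosa cells were -3.22 for Gja1, 6.45 for Cdh1 and -4.94 for Cdh2. For Cdh1 it was 9.88 without doxorubicin granulosa library 6. Gja4 was at -0.16 (-0.17 to -0.14), with summed levels of 301 CPM in oocytes and 335 CPM in granulosa libraries. It was 0.50 without doxorubicin granulosa library 1 and 3.45 with the 5 libraries whose granulosa sum was higher. These comparisons share their libraries with the drug comparisons above.

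Genes were ranked by how closely their levels ran with those of the 4 genes from cell to cell within a cell type. After each cell was set against the mean of its own group, the genes most like Gja1 over 32 oocytes were Inha, Cdk4 and Akr1cl, with Pearson's r of 0.85, 0.85 and 0.82. Inha, the inhibin alpha subunit, is itself a granulosa marker of the list used here. Gja1 had an r of 0.77 with the granulosa marker sum and of 0.69 with the stroma marker sum in these oocytes. Over 29 granulosa libraries Gja1 was most like Fopnl, Cdc26 and Ran, at 0.78, 0.75 and 0.75, and Cdh2 most like Rpap3, Ndufaf5 and Ephx2, at 0.77, 0.75 and 0.74. Gja4 in oocytes reached 0.7 only with Vps13a, at 0.71. In granulosa libraries its closest gene was Gdf9, an oocyte-secreted growth factor, at 0.68, under the limit of 0.7. Cdh1 in oocytes came closest to Slc7a11, also at 0.68. These are the highest of 11881 and 6554 genes in cells that share their scaling to total counts.

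Among the other connexins, few were present. Of 14 other connexin and pannexin genes with a row, 4 reached 5 CPM in control oocytes or control granulosa cells. Of these, 2 were past 2-fold in each direction, beside 29.0% of all genes higher in oocytes and 31.3% lower. Gjb2 reached 5 CPM only in control oocytes and Gjb1 only in control granulosa libraries, so their direction was fixed by that filter. Gjc1, which encodes connexin 45, was at 33.4 CPM in control oocytes and 107 CPM in control granulosa cells, but its median over the granulosa libraries was 0.204 CPM, and its log2 ratio of -1.69 was -0.23 without control library 3. Gjb2, which encodes connexin 26, was at 9.75 CPM in control oocytes and 0.00556 CPM in control granulosa cells. Panx1, a pannexin channel of the cell surface, was at 60.1 and 21 CPM. After doxorubicin, 3 of 3 with at least 5 CPM in oocytes were lower and none past 2-fold, beside 8.75% of all genes. Ratios were -0.51 for Gjc1, -0.47 for Panx1 and -0.26 for Gjb2, with a median of -0.47 beside 0.01 over all genes. The value of Gjb2 was 0.33 without control oocyte 2. In granulosa libraries 3 reached 5 CPM and all 3 were past 2-fold, beside 40.6% of all genes. Panx1 was higher (1.01, and 0.20 without doxorubicin library 16). Gjc1 was lower (-3.42, and -1.96 without control library 3). Gjb1, which encodes connexin 32, was also lower (-2.17, and 6.13 without control library 14). It reached 5 CPM only in control libraries, so its direction was fixed by that filter.

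The catenins were found on both sides. Of 11 catenin and linker genes, all with at least 5 CPM, 5 were past 2-fold higher in control oocytes and 3 past 2-fold lower, beside 29.0% and 31.3% of all genes. Ctnna3 and Ctnnd2 reached 5 CPM only in control oocytes, so their direction was fixed by that filter. Beta-catenin, encoded by Ctnnb1, was at 238 CPM in control oocytes and 730 CPM in control granulosa cells, a log2 ratio of -1.62. Plakoglobin, its close relative encoded by Jup, was at 238 and 91.6 CPM, a ratio of 1.38. Alpha-catenin, encoded by Ctnna1, had a ratio of -1.88. Arvcf, of the p120 catenin family, was at 266 and 11.6 CPM, a ratio of 4.52 that was 10.58 without control granulosa library 16. Ctnnd1, p120 catenin itself, was at 5.13 and 124 CPM, a ratio of -4.60, and is named beyond the rule after its values were seen. Of those not past 2-fold, Afdn had a ratio of 0.76 and Vcl of -0.56.

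After doxorubicin, 0 of the 11 catenin genes were past 2-fold in oocytes, beside 8.75% of all genes, with a median log2 ratio of -0.11. Ctnna1 came nearest, from 75.7 to 45.1 CPM (-0.74), and Ctnnb1 was at 0.21. In granulosa libraries 1 of 9 was past 2-fold, beside 40.6% of all genes. This was Arvcf, from 11.6 to 67.4 CPM (2.54, and 0.82 without doxorubicin library 4). The median of the 9 was -0.23 beside -0.03 over all genes. Ctnnb1 differed by 0.04 there.

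Of 5 connexin partner genes, 4 were lower in control oocytes by summed counts, as were 6270 of all 12373 genes, and 2 of them were past 2-fold, beside 31.3% of all genes. In 3 of these 4 the cells' medians ran the other way. Nedd4, a ubiquitin ligase that acts on connexin 43, was at 77.3 CPM in control oocytes and 1363 CPM in control granulosa cells (-4.14). Dbn1, which encodes the actin binder drebrin, had a ratio of -2.78, but medians of 11.2 CPM in control oocytes and 0.0875 CPM in control granulosa libraries. Tjp1, the scaffold ZO-1, had a ratio of -0.88 and medians of 27.2 and 13.2 CPM. Cnst, which encodes the connexin trafficking receptor consortin, had a ratio of -0.75 and medians of 10.65 and 0 CPM. After doxorubicin 0 of 5 were past 2-fold in oocytes, beside 8.75% of all genes.

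Of 4 genes that repress Cdh1 or shed cadherins, with at least 5 CPM, 4 were past 2-fold lower in control oocytes, beside 31.3% of all genes, with a median of -3.61. Zeb2 and Snai2 reached 5 CPM only in control granulosa libraries, so their direction was fixed by that filter, while Zeb1 and Adam10 reached it in both groups. Zeb1 was at 34.0 CPM in control oocytes and 100 CPM in control granulosa cells (-1.56), so that it was present in oocytes beside Cdh1. Zeb2 was at 1.15 and 87.3 CPM (-6.24) with a granulosa median of 6.05 CPM, and Snai2 at 0.771 and 29.0 CPM (-5.23) with a granulosa median of 0 CPM. Adam10, the protease that sheds cadherins, had a ratio of -1.98. After doxorubicin neither Zeb1 (-0.33) nor Adam10 (-0.17) was past 2-fold in oocytes, beside 8.75% of all genes. In granulosa libraries, where 40.6% of all genes were past it, only Zeb2 was. Its ratio was -1.73, between -2.86 without doxorubicin library 13 and -1.0 without control library 3.

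Genes of the granulosa projections that cross the zona pellucida to the oocyte formed a list of 3. Fscn1, which bundles actin, was at 5.57 CPM in control oocytes and 65.1 CPM in control granulosa cells (-3.54). Myo10, a motor of filopodia, was at 166 and 243 CPM (-0.55), and Daam1, an actin nucleator, at 42.0 and 25.1 CPM (0.74). After doxorubicin 0 of 3 were past 2-fold in either cell type, beside 8.75% of all genes in oocytes and 40.6% in granulosa libraries. Fscn1 came nearest, from 65.1 to 34.7 CPM in granulosa libraries (-0.91).

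**Figure D5:**
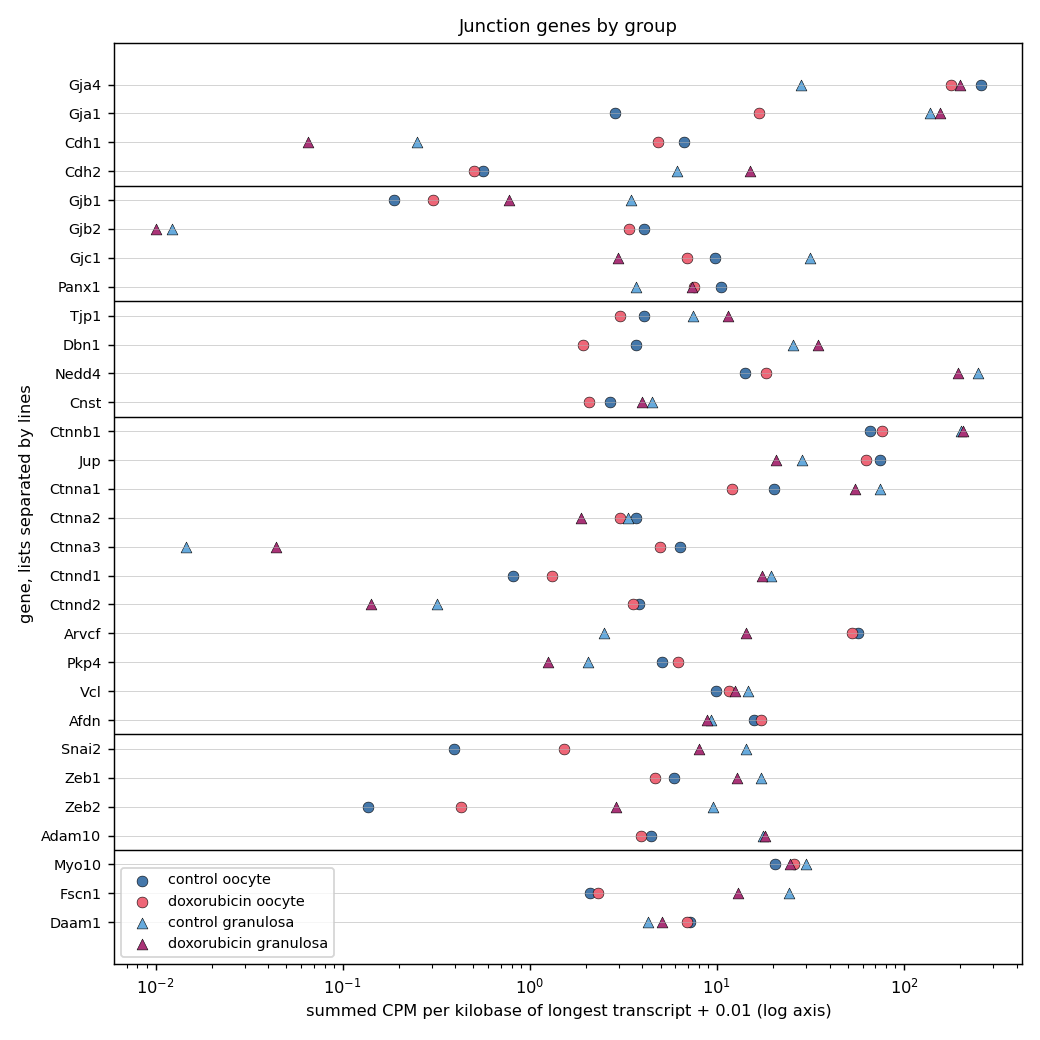
Summed CPM per kilobase of the longest transcript, plus 0.01, on a log axis for the 4 genes and the lists of other connexins, connexin partners, catenins, repressors and projection genes with at least 5 CPM in any group, apart from 1 gene not reported here; circles are oocytes and triangles granulosa libraries. Gja4 in control oocytes (258) and Gja1 in control granulosa cells (138) lie far right of Cdh1 (6.70) and Cdh2 (6.13) in the same groups.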

How the data were processed

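Single cells were lysed and their mRNA was amplified with a full-length low-input kit, per the labels' protocols. The deposited values are estimated counts for each gene row and cell, and 34.05% of those above 0 are not whole. The submitters' processing notes name Partek, Bowtie2, HISAT2, DESeq2 and the build mm10. The counting tool and annotation are not given in the sources used here. All 61 cell columns were used and matched by name. They share 1 batch label and 1 lane in the headers. Counts were rounded, and 22 date-like rows (0.144% of counts) were kept in totals only.

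Counts were summed per group and divided by the total of all gene rows. A group under 3 counts was set to 3. Ratios have exact conditional binomial intervals, CPM exact Poisson intervals and shares exact Clopper-Pearson intervals, all at 95%. A ratio past 2-fold was called, among genes that reached 5 CPM in one or both groups, and a gene was detected in a cell with at least 5 counts. With 1 sample per group no test was run. In simulated data with Poisson counting error only, 200 of 10446 genes were raised or lowered by a log2 change of 2. The oocyte drug comparison gave medians of 1.97 over the raised and -2.03 over the lowered genes. There 96.0% of intervals held the true value. No spread between cells or animals was simulated, so this does not show how the intervals do with such spread.

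The 4 genes, the 7 junction gene lists and the 7 marker lists (oocyte, granulosa, stroma, endothelium, surface epithelium, smooth muscle, blood and immune) were chosen with earlier results of these data known. The values of 1 connexin partner are not reported here, though counts over its list include it. From a list, the 4 genes of highest level past 2-fold and the 2 highest others were named. Like genes were the top 3 by Pearson's r of log2(CPM + 1), named from 0.7, among genes detected in at least 50% of cells. TGANTCA was added after its letters had been seen in the Gja1 window. Positions and transcript lengths came from GENCODE M21 (mm10), matched by symbol. Python 3.11.15, numpy 2.4.6, pandas 2.3.3, scipy 1.17.1, matplotlib 3.10.9, R 4.3.3, edgeR 4.0.16 and DESeq2 1.42.0 were used, the last 2 for scaling factors.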

Additional observations from a re-analysis of the deposited data

Results flagged for a closer look

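Gja4 was on opposite sides of 0 in the 2 cell types after doxorubicin. Its log2 ratio of doxorubicin over control was -0.53 in oocytes and 2.82 in granulosa libraries. The difference between the cell types was not tested, since each group is 1 sample. The granulosa value was -0.64 among libraries whose granulosa marker sum exceeded their oocyte marker sum and 1.26 among libraries with at least 5000 CPM of granulosa markers.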

How the results depend on the processing

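No paired analysis was possible because the cells' numbers only name them and no result comes from a test. In oocytes, 1 of the 4 genes was past 2-fold after doxorubicin and 0 when the cells' medians were compared. In granulosa libraries the count of 2 became 0 with libraries whose own markers were higher, 0 with those whose granulosa sum exceeded the oocyte and the stroma sum, 1 with those under 2000 CPM of oocyte markers (both added after the data were seen), and 1 to 2 over leaving out 1 cell (1 without doxorubicin granulosa library 12). Gja4 in granulosa libraries turned from 2.82 to -0.64, -0.32 and -7.49 under the first 3 of these. All 3 kept control library 1, the highest control library for Gja4 at 255 CPM, and were not rerun without it. Cdh1 in granulosa libraries went from -2.11 to between -5.54 and 3.76 over leaving out 1 cell. The cause was not tested. In control oocytes against control granulosa cells all 4 genes kept direction and call under every alternative run. TMM and DESeq2 factors, which lay between 0.981 and 1.02, and unrounded counts changed no call. Without a filter on low genes the share of genes past 2-fold in oocytes was 34.0%, and with at least 20 CPM it was 4.03%. At 1 count or more, Gja4 was found in 15 of 16 control granulosa libraries in place of 8, and after thinning to 1000000 counts in 7.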

Other observations

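Other junction genes also differed between the cell types. Of 11 nectin, desmosome and tight junction genes with at least 5 CPM in control oocytes or control granulosa cells, 4 were past 2-fold higher in oocytes and 6 past 2-fold lower, beside 29.0% and 31.3% of all genes. Some of them, Ocln included, reached 5 CPM in only 1 of the groups, so their direction was fixed by that filter. Occludin, a tight junction protein encoded by Ocln, was at 27.4 CPM in control oocytes and 0.0111 CPM in control granulosa cells. F11r, a junctional adhesion molecule, was at 30.9 and 181 CPM, and Nectin2, a nectin that joins cadherin junctions through afadin, at 36.1 and 105 CPM. Plakophilin 2, a desmosome protein encoded by Pkp2, was at 49.3 and 18.5 CPM, and Nectin3, the 1 gene not past 2-fold, at 68.0 and 48.4 CPM. After doxorubicin Ocln was the 1 gene of 7 past 2-fold in oocytes, beside 8.75% of all genes and 2.45% on the lower side. It was at 12.1 CPM, a log2 ratio of -1.18 that was -0.87 without control oocyte 16.

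Among 7 other cadherins with at least 5 CPM in either control group, 3 were past 2-fold higher in oocytes and 4 past 2-fold lower, beside the same shares of all genes. Of these 7 only Cdh13 reached 5 CPM in both control groups, so the direction of the others was fixed by that filter. P-cadherin, encoded by Cdh3, was at 17.3 CPM in control oocytes and 0.106 CPM in control granulosa cells. Cdh11 was at 4.22 and 197 CPM, but its median over control granulosa libraries was 0.314 CPM. Cdh13, which encodes T-cadherin, was at 6.45 and 80.4 CPM, a log2 ratio of -3.64 that turned to 8.48 without control granulosa library 10, and Cdh5, the endothelial cadherin, at 0.0153 and 20.7 CPM, with a median of 0 CPM in both groups. After doxorubicin 3 of 6 other cadherins were past 2-fold higher in oocytes and 5 of 6 higher, beside 6.30% of all genes past 2-fold higher. Cdh15 was at 1.03 and Cdh4 at 1.28, and without doxorubicin oocyte 5 they were at 0.20 and 0.71, short of 2-fold. Cdh4 and Cdh11 reached 5 CPM only in doxorubicin oocytes, and Cdh20, the 1 lower gene, only in control oocytes. The direction of these genes was thus fixed by that filter. Cdh3 was at 0.68 and Cdh13 at 0.36. Cdh11 was at 15.99 CPM in doxorubicin oocytes, a log2 ratio over control of 1.92, with medians of 0.132 and 0.0878 CPM in the doxorubicin and control cells.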
